A study of Homo sapiens with 2 samples.

Results

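Oxidative phosphorylation was examined here through the nuclear genes that encode its subunits, in the human embryonic stem cell line H9. Members were the probes that are not controls and whose RefSeq accession led to a gene symbol of complex I (NDUFA, NDUFB, NDUFC, NDUFS and NDUFV genes), complex II (SDHA, SDHB, SDHC and SDHD), complex III (UQCR genes), complex IV (COX4I1, COX5, COX6, COX7 and COX8 genes) or complex V (ATP5F1, ATP5M and ATP5P genes), without assembly factors, pseudogenes and noncoding genes. This gave 82 genes of the 22439 that could be named on the array, read by 105 of its 58201 probes. Complex I held 37 genes, complex II 4, complex III 8, complex IV 15 and complex V 18. COX7A1 and UQCRHL also met the rule but no probe was named for them.

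All cells came from the same line and were grown without feeder cells in TeSR-E8 medium after a move from vitronectin to Matrigel. Substate 1 cells, at passage 35, formed typical colonies with strong R-10G staining and almost no vimentin. Substate 2 cells, at passage 50, formed colonies with wide spaces between cells, weaker R-10G staining and vimentin. Each substate was measured on 1 single-colour Agilent array, so that there were no replicates, no test between substates was possible, and passage and substate cannot be told apart. Values are normalised log2 signals with the 75th percentile of each array at 0, and a difference is substate 2 minus substate 1, so that 1 log2 unit is 2-fold. A probe was called measured where the scanner software marked it as well above background.

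The labelled cell type was checked first. The pluripotency genes POU5F1, NANOG, SOX2, LIN28A, DNMT3B and DPPA4 were measured on both arrays, with differences between 0.07 for DPPA4 and 0.42 for NANOG. SOX17, TBXT and PAX6, which mark early germ layers, were well above background on neither array, whereas AFP was measured on both (difference 0.46), as was COL1A1 (-0.49). The genes behind the substates differed by far more, with 2.53 for vimentin (VIM), -1.47 for E-cadherin (CDH1) and 2.41 and 2.67 for the probes of ZEB1. In a bulk sample, fewer cells that express a gene and less of its RNA per cell cannot be told apart.

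Oxidative phosphorylation takes place in the inner mitochondrial membrane. Complexes I and II pass electrons from NADH and from succinate to ubiquinone, complex III hands them to cytochrome c and complex IV to oxygen, and complex V, the ATP synthase, uses the proton gradient built by complexes I, III and IV. Most subunits are encoded in the nucleus, a small set in mitochondrial DNA, and only complex II is encoded wholly in the nucleus and also works in the citric acid cycle. Pluripotent stem cells are known for relying strongly on glycolysis, with respiration gaining weight as they differentiate.

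Most subunit genes read slightly higher in substate 2 cells. Of the 103 subunit probes measured on both arrays, 98 were higher in substate 2, against 56% of all 29883 such probes, and 5 were lower. The median difference was 0.26, or 1.19-fold, compared with 0.06 for all measured probes, whose middle 50% ran from -0.20 to 0.27. By gene, with the probes of a gene averaged, 76 of 80 subunit genes were higher, against 59.8% of all 16001 measured genes, and the median was 0.28 against 0.08. The 4 lower genes were NDUFA9 and NDUFB9 of complex I and COX6A1 and COX8C of complex IV. When the differences were centred by loess on signal strength, 85 of 103 probes were higher, against 52.3% of all measured probes, and the subunit median was 0.11 against 0.02.

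No subunit differed strongly. Of the 104 subunit probes that at least 1 array measured, 0 were 2-fold or more apart, against 3.22% of all such probes (1.55% higher and 1.67% lower), and 3 were 1.5-fold or more apart, against 13.7%. These 3 were single probes of COX6A2, COX8C and UQCR10, with mean signals of -3.94, -3.02 and -0.12. The shares are over probes of all signal strengths, and those at the signal of the subunits are not given here. The middle 50% of other probes ran from -0.31 to 0.28 among the dimmest 25% of measured probes. Among the top 10%, where 77 of the subunit probes lay, it ran from 0.02 to 0.32. None of the 105 subunit probes passed the Z-score limits of 2 in either direction that the study used for messenger RNA, against 6.33% of all probes. Those limits, set from the spread of all probes including the dim ones, corresponded to 2.53-fold higher and 2.29-fold lower.

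**Figure D1:**
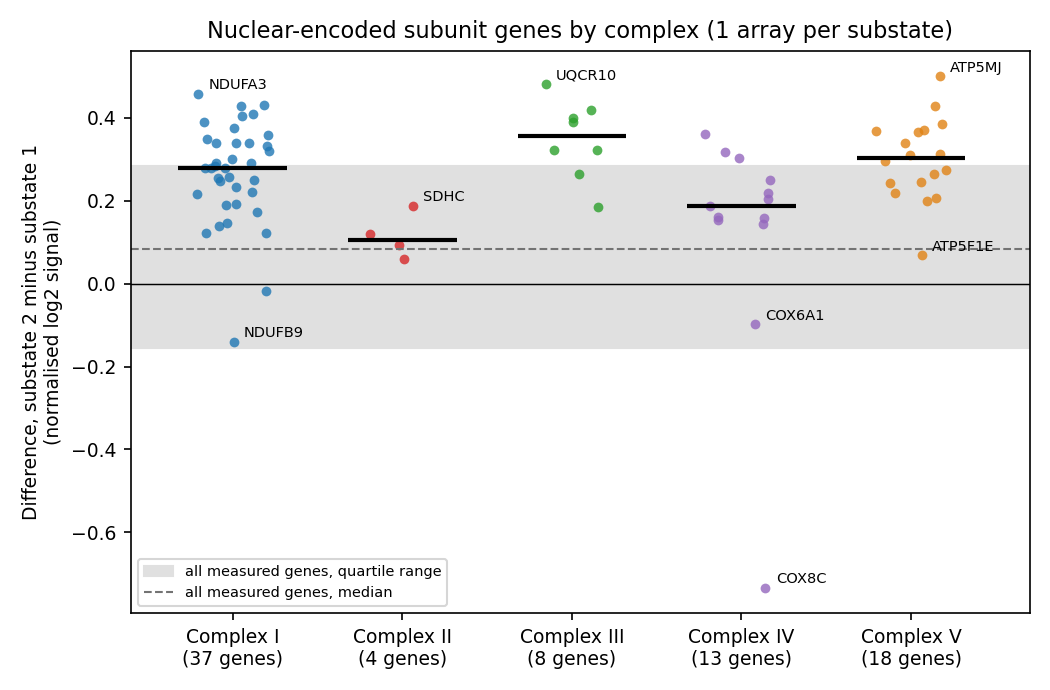
Difference of each measured subunit gene (points, substate 2 minus substate 1, normalised log2 signal) by complex, with the median of each complex as a bar and the median and quartile range of all 16001 measured genes behind them. The medians were 0.28, 0.11, 0.36, 0.19 and 0.30 for complexes I to V, and COX8C stood lowest at -0.73. After loess centring on signal the medians were 0.13, 0.01, 0.18, 0.01 and 0.13.

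The size of the difference varied by complex. Complex III had the highest gene median at 0.36 with 8 of 8 genes higher (59.8% of all measured genes were), followed by complex V at 0.30 with 18 of 18 and complex I at 0.28 with 35 of 37. Complex IV was at 0.19 with 11 of 13 genes higher, and complex II at 0.11 with 4 of 4. The 4 complex II genes lay between 0.06 and 0.19, and 16 of the 76 genes of the other complexes were lower than the highest of them. A difference of 0.3 or more was found in 14 genes of complex I, 6 of complex III and 9 of complex V. It was found in 3 of 13 genes of complex IV and in 0 of 4 of complex II. The upper quartile of all measured genes was 0.28, a little under 0.3. With 4 genes, complex II cannot be set apart from that share. After loess centring the medians of complexes II and IV were both 0.01, and the genes above 0 numbered 31 of 37 in complex I, 3 of 4 in complex II, 8 of 8 in complex III, 7 of 13 in complex IV and 17 of 18 in complex V. The share of all measured genes above 0 was then 54.5%.

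Differences were more often above 0 at higher signal over the whole array, and most subunit probes lay in the top band of signal. Among the top 10% of measured probes, at a mean signal of 3.996 or more, 76.9% of the 2912 other probes were higher in substate 2, with a median of 0.20. In that same band lay 77 subunit probes, of which 74 or 96.1% were higher, with a median of 0.27. In the next band, down to 2.08, the other probes had a median of 0.12 with 65.1% higher, and 12 of 13 subunit probes were higher with a median of 0.20. In the band from there down to -0.11, 9 of 9 subunit probes were higher with a median of 0.25, against 0.06 and 57.3% for the others. The 2 dimmest bands held only 4 subunit probes. Of the 11 complex II probes, 9 lay below the top band, and their medians of 0.07 and 0.12 in the bands under it were close to those of the other probes there. Whether signal strength accounts for part of the differences was not tested.

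**Figure D2:**
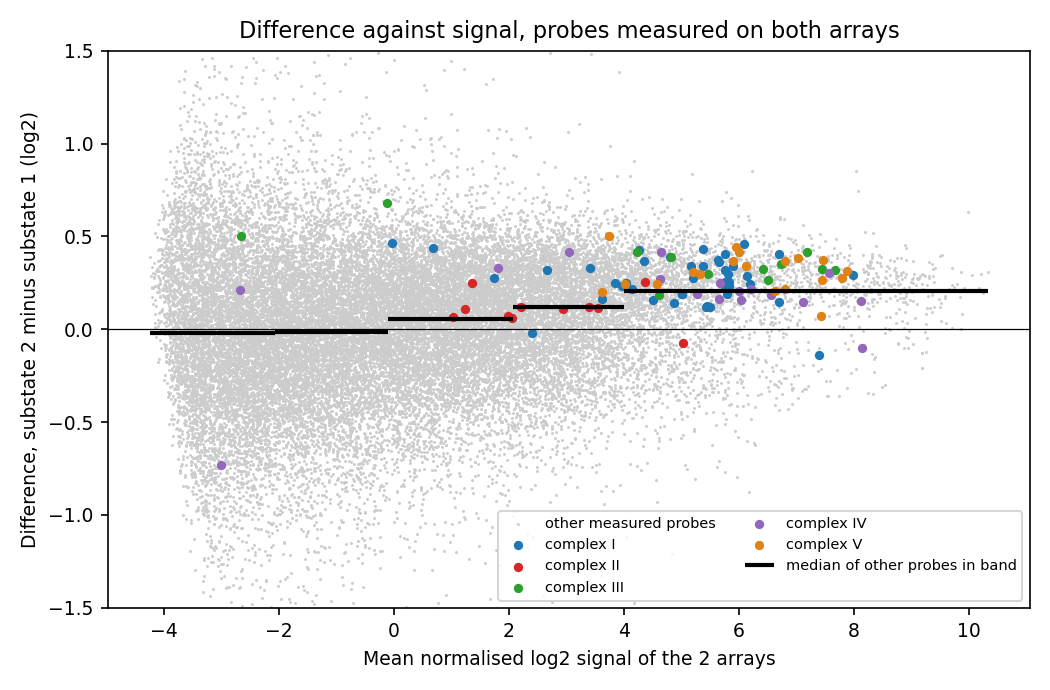
Difference (substate 2 minus substate 1, log2) against the mean normalised log2 signal of the 2 arrays for all probes measured on both; grey points are other probes, coloured points subunits by complex, and black bars the medians of the other probes in 5 signal bands. The bars climb from -0.02 in the dimmest band to 0.20 in the brightest, and most subunit points lie above them; 124 of 29780 other probes fall outside the axis limits of -1.5 and 1.5.

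Nuclear respiratory genes are known for motifs that recur in their promoters, so these were examined in the subunit genes. RefSeq (GRCh38.p14) gave a promoter of 300 bases, from 250 before to 50 after the gene start, for 67 of the 80 measured subunit genes, and the first listed window was taken where a gene had several. They were searched on both strands for the cores of 3 motifs known from respiratory gene promoters, namely GCATGCGC for NRF1, CCGGAAGT for ETS factors such as GABPA, and AAGATGGC for YY1. The NRF1 core was present in 13 of 67 (19.4%), against 3.27% of all 27305 promoters and 4.26% of the 15843 of protein-coding genes. The ETS core was present in 10 (14.9%), against 4.44% and 6.19%, and the YY1 core in 11 (16.4%), against 3.03% and 3.91%. At least 1 of the 3 was found in 28 (41.8%), against 9.94% and 13.2%. Genes with and without a core had nearly the same median difference, 0.27 and 0.26. A match is only a match of letters, and binding was not measured.

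For each complex, the gene with the largest difference among those with a core in the 150 bases before the start is shown, 5′ to 3′ on the strand of the gene, with the cores in capitals. NDUFS6 lies at chr5:1801257-1801406 on the plus strand, SDHD at chr11:112086723-112086872 (plus), UQCRQ at chr5:132866492-132866641 (plus), COX8A at chr11:63974470-63974619 (plus) and ATP5MC2 at chr12:53676084-53676233 (minus). In SDHD the NRF1 core occurs on both strands, overlapping in a palindrome, and is followed by an ETS core.
NDUFS6: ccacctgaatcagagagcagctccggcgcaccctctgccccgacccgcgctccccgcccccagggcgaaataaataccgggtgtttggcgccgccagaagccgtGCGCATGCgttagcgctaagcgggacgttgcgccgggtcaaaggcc
SDHD: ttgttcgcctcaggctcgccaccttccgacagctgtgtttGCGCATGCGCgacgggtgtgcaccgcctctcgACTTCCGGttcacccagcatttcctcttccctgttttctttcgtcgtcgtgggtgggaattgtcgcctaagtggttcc
UQCRQ: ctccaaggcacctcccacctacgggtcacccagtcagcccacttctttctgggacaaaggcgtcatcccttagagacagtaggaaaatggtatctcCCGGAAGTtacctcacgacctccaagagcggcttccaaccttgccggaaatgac
COX8A: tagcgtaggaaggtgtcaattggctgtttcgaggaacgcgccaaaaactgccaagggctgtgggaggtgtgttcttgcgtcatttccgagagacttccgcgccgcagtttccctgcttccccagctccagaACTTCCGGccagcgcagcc
ATP5MC2: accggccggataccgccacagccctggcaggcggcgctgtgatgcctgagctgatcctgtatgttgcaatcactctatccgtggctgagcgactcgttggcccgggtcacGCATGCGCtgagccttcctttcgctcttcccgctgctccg

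Next come the same windows of NDUFA9, COX6A1 and COX8C, genes with a difference below 0, which held none of the cores and are therefore without capitals. NDUFB9, also below 0, was not among the 67. They lie at chr12:4648964-4649113, chr12:120437963-120438112 and chr14:93347032-93347181, each on the plus strand.
NDUFA9: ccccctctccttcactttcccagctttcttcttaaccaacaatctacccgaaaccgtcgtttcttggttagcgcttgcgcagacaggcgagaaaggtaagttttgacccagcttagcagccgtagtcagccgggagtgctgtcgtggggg
COX6A1: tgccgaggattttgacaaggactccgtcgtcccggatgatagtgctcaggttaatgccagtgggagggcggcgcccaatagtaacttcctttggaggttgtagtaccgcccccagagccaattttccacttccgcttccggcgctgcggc
COX8C: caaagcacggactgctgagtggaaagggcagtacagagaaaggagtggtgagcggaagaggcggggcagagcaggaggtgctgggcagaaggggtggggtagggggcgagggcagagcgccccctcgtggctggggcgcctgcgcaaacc

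Complex I, the NADH dehydrogenase, is built from a catalytic core and a larger shell of accessory subunits. Its 7 nuclear core genes, named here for their role after their values had been seen, had a median of 0.28, the same as the 30 accessory genes. In the part of the core that takes up NADH, NDUFV1, which carries the flavin, read 5.44 in substate 1 and 5.57 in substate 2, a difference of 0.12 that turned to -0.04 after loess centring and -0.03 after quantile normalisation. NDUFS1 and NDUFV2, which carry iron-sulphur clusters, differed by 0.19 and 0.28. In the part that leads on to ubiquinone, the differences were 0.25 for NDUFS7, 0.32 for NDUFS8 and 0.39 for NDUFS3. These values were the higher ones within the core, although NDUFV2 lay among them.

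Among the accessory genes the highest difference was that of NDUFA3, a small subunit of the membrane arm, which read 5.87 in substate 1 and 6.32 in substate 2, a difference of 0.46. NDUFA11 went from 5.17 to 5.60 (0.43) and NDUFB7 from 4.05 to 4.48 (0.43). Both are accessory proteins of the membrane arm. At the other end, NDUFB9, a membrane arm protein of the LYR family, was lower in substate 2, at 7.33 against 7.47 (-0.14). NDUFB9 stood at -0.34 after loess centring and at -0.37 after quantile normalisation. NDUFA9, which lies near the ubiquinone site, read 2.41 and 2.39 (-0.02), a difference within the noise between spots that turned to 0.02 when the arrays were centred on their medians. NDUFB10 differed by 0.12, and by -0.04 after loess centring and -0.02 after quantile normalisation. The other 30 genes of complex I not among these 3 highest and 4 lowest lay between 0.14 and 0.41, of which NDUFB4 and NDUFS4 were below 0 under loess centring and quantile normalisation.

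Complex II, the succinate dehydrogenase, showed small differences. SDHA, the flavoprotein that oxidises succinate, had 4 probes. Their values went from 2.14 to 2.26, from 3.49 to 3.61, from 5.06 to 4.99 and from 1.94 to 2.02. These are differences of 0.12, 0.12, -0.07 and 0.07, so that 1 probe went against the others, and their mean was 0.06, or -0.05 after loess centring and -0.03 after quantile normalisation. SDHA has pseudogene copies of closely similar sequence, and a probe may read both.

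SDHB, the iron-sulphur subunit, read 3.33 in substate 1 and 3.45 in substate 2 (0.12). The membrane anchors SDHC and SDHD had 3 probes each. Those of SDHC differed by 0.06, 0.25 and 0.25 (mean 0.19) and those of SDHD by 0.06, 0.11 and 0.11 (mean 0.09).

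Complex III, the cytochrome bc1 complex, had its 8 genes between 0.18 and 0.48. UQCR10, a small membrane subunit, had 3 probes that went from 6.55 to 6.91, from 4.02 to 4.44 and from -0.46 to 0.22. The differences were 0.35, 0.42 and 0.68, the last from the dimmest probe. UQCRQ, another small subunit, went from 6.97 to 7.39 (0.42), and the probes of UQCRB differed by 0.30 and 0.50.

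The core protein genes of complex III had 1 probe each. UQCRC1 read 4.62 and 5.01 (0.39), and UQCRC2 read 4.52 and 4.71 (0.18). For scale, the probes of a single gene spanned a median of 0.18 over 4236 genes with several measured probes. UQCRFS1, the Rieske iron-sulphur protein that is one of the catalytic subunits, differed by 0.32, UQCRH, the hinge protein near cytochrome c, by 0.32, and UQCR11 by 0.26.

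Complex IV, the cytochrome c oxidase, held the gene with the lowest value, COX8C. Its nuclear subunits surround a catalytic centre that mitochondrial DNA encodes, and several exist as a general form and one known from heart, muscle or testis. COX8A, the general form of subunit 8, went from 5.93 to 6.29 (0.36), while the testis form COX8C went from -2.65 to -3.38 (-0.73). The COX8C signal was only just measurable, with processed intensities of 49.98 and 26.4, and after normexp background correction the difference was -0.08. COX6A1, the general form of subunit 6A, was lower in substate 2 at 8.10 against 8.20 (-0.10). COX6A1 stood at -0.32 after loess centring and at -0.31 after quantile normalisation. Its heart and muscle form COX6A2 was well above background in substate 1 only (-3.48 against -4.41). The bound used here was 1.64-fold lower in substate 2, from 1 dim spot with processed intensities of 28.07 and 12.99. It does not take the error of that spot into account.

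For subunit 6B both forms were higher, COX6B1 by 0.22 and the testis form COX6B2 by 0.32. For subunit 7B the general form COX7B differed by 0.25, and the testis form COX7B2 was well above background on neither array. COX4I1 differed by 0.21 and its alternative form COX4I2, a dim probe outside the rule, by -0.07. COX7A2L, which joins complexes III and IV, went from 3.07 to 3.37 (0.30), whereas COX7A2 itself differed by 0.14, and by -0.05 after loess centring and -0.07 after quantile normalisation. COX5A, COX5B, COX6C and COX7C lay between 0.15 and 0.19, of which COX5B, COX6C and COX7C were below 0 after loess centring and COX6C also after quantile normalisation. Paralogues of a subunit were read by different probes, so their levels were not compared with each other.

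NDUFA4, a subunit of complex IV that carries the newer symbol COXFA4 in the gene table, fell outside the rule. It read 7.81 in substate 1 and 7.82 in substate 2, a difference of 0.01 that was -0.20 after loess centring. Its relative NDUFA4L2, now COXFA4L2, was well above background on neither array.

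**Figure D3:**
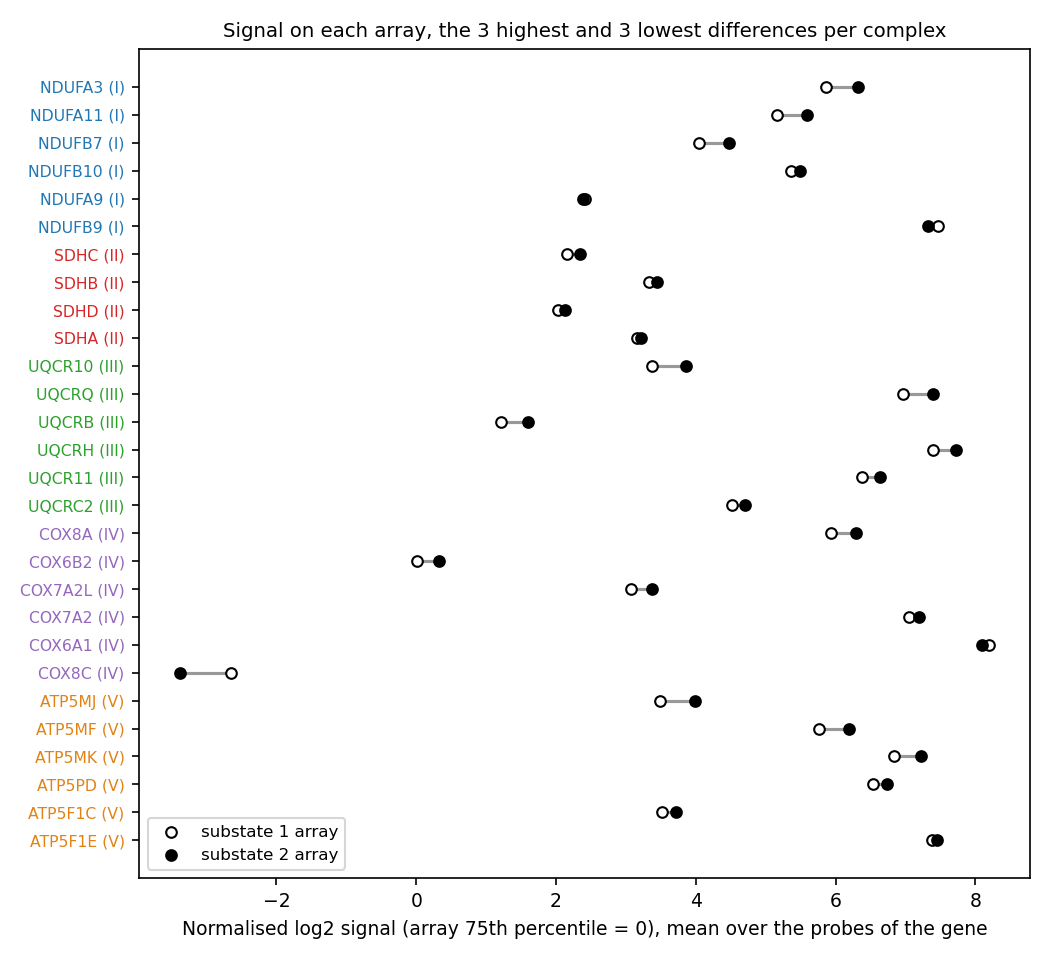
Normalised log2 signal on the substate 1 array (open) and the substate 2 array (filled) for the 3 highest and 3 lowest measured genes of each complex, and all 4 of complex II, averaged over the probes of a gene. The filled point lies to the right for most genes and to the left for NDUFA9, NDUFB9, COX6A1 and COX8C; under loess centring or quantile normalisation NDUFB10, SDHA, COX7A2 and ATP5F1E also lie to the left. Positions of different genes are not comparable as levels.

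Complex V, the ATP synthase, had all of its 18 genes higher in substate 2, except that ATP5F1E was at -0.14 after loess centring and after quantile normalisation. In the F1 head, where ATP is made, the alpha subunit ATP5F1A differed by 0.22 and the beta subunit ATP5F1B by 0.37. In the central stalk the gamma subunit ATP5F1C went from 3.51 to 3.71 (0.20), the delta subunit ATP5F1D differed by 0.24, and the epsilon subunit ATP5F1E read 7.39 and 7.46 (0.07). The 4 genes of the peripheral stalk lay between 0.21 (ATP5PD) and 0.34 (ATP5PF).

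The genes of the membrane part differed most within complex V, with a median of 0.38 over 6 genes. ATP5MJ went from 3.49 to 3.99 (0.50, or 1.41-fold), the highest of the 80 genes except with normexp background correction, where NDUFA3 (0.58) was above it (0.51). ATP5MF followed with 0.43 (probes 0.42 and 0.44) and ATP5MK with 0.38. The c ring, which turns with the flow of protons, is encoded by 3 genes whose mature proteins are the same. They differed by 0.24 for ATP5MC1, 0.37 for ATP5MC2 and 0.31 for ATP5MC3. ATP5MGL (0.30) is a close copy of ATP5MG (0.27), and the signal of the pair may be shared between their probes.

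Error between spots and between probes could be measured, unlike error between cultures. A probe of each of 4 subunit genes was printed 10 times on each array. NDUFS6, an accessory subunit of complex I, read 5.45 ± 0.04 in substate 1 and 5.83 ± 0.06 in substate 2 (SD between 10 spots), a difference of 0.37. NDUFS5, of the same complex, read 7.84 ± 0.03 and 8.13 ± 0.06, a difference of 0.29. COX7C read 8.05 ± 0.04 and 8.20 ± 0.03, a difference of 0.15 that became -0.07 after loess centring. The spots of these 3 genes did not overlap between arrays. Those of UQCRC2 did, at 4.52 ± 0.05 and 4.71 ± 0.06. Its lowest substate 2 spot (4.55) lay under its highest substate 1 spot (4.58). How often the spots of other probes printed several times overlapped is not given here. Other probes in the top band of signal had a median difference of 0.20.

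**Figure D4:**
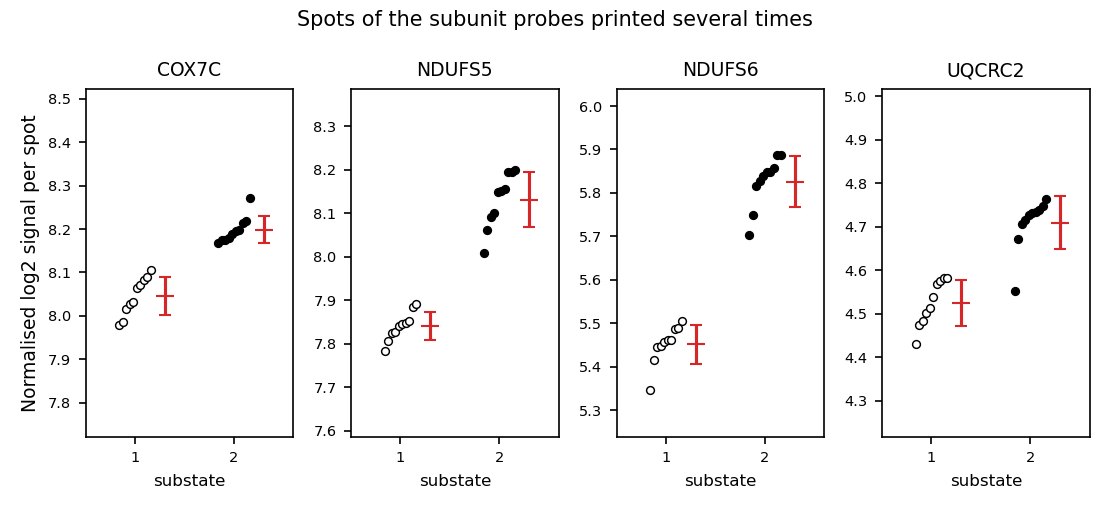
Normalised log2 signal of each of the 10 spots per array for the 4 subunit probes printed several times, ordered by value, for substate 1 (open) and substate 2 (filled), with mean and SD in red. The differences of the means were 0.15 for COX7C, 0.29 for NDUFS5, 0.37 for NDUFS6 and 0.18 for UQCRC2, and that of COX7C was -0.07 after loess centring.

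Over 291 measured probes printed several times, a difference taken from 1 spot on each array had an SD of 0.07. The differences of NDUFA9, of ATP5F1E, of the SDHA probes at -0.07 and 0.07 and of 1 probe each of SDHC and SDHD (both 0.06) were at or near that size. For the 18 subunit genes with several measured probes, the differences of the probes of a gene spanned a median of 0.11, against 0.18 over 4236 genes, and in 17 of the 18 all probes had the same sign. The SDHA probes were the exception. In no subunit gene were probes more than 0.5 apart. These errors describe the arrays, and the spread between cultures of a substate was not measured.

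The genes lay on 21 autosomes and the X chromosome in small groups. The 11 on chromosome 19 had a median of 0.32 and the 3 on the X chromosome, NDUFA1, NDUFB11 and COX7B, differed by 0.26, 0.25 and 0.25.

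Other genes of the pathway were read from lists, each described by its count of higher genes, to be read against the 59.8% of all measured genes. Of the 8 measured assembly factors of complex I (NDUFAF genes), 7 were higher, with a median of 0.18, or 0.11 after loess centring. NDUFAF3 (0.57) and NDUFAF8 (0.33) were the highest, and NDUFAF7 (-0.13) and NDUFAF5 (0.04) the lowest. Of 39 assembly factors of the other complexes and of complex I under other symbols, 34 were higher, with a median of 0.19. After loess centring that median was 0.08. COA3, which serves the assembly of complex IV, went from 3.66 to 4.29 (0.63) and SDHAF2, which helps attach flavin to SDHA, from 2.29 to 2.88 (0.59). COX19 (-0.38) and LYRM7 (-0.09) were the lowest.

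CYC1, the cytochrome c1 of complex III, differed by 0.23, cytochrome c itself (CYCS) by 0.28 and ATP5IF1, an inhibitor of the ATP synthase, by 0.23. Of 13 genes of the citric acid cycle 12 were higher, with a median of 0.16, or 0.13 after loess centring. IDH3G (0.42) and IDH3B (0.40), parts of isocitrate dehydrogenase, were the highest and OGDH (-0.05) was the lowest. Among the probes of these lists that at least 1 array measured, 0 were 2-fold apart, against 3.22% of all such probes.

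Of the 77 measured genes of mitochondrial ribosomal proteins, which translate the subunits encoded in mitochondrial DNA, 74 were higher and the median was 0.28, or 0.16 after loess centring. MRPL46 and MRPL49 were highest (both 0.56), and MRPS25 (-0.40) and MRPL35 (-0.09) lowest. Of the 82 genes of cytosolic ribosomal proteins 80 were higher and the median was 0.22, but only 0.01 after loess centring. RPS20 (0.45) and RPL10L (0.38), a close copy of RPL10 whose probe may read both, were highest in that list, and RPS24 (-0.44, from probes of opposite sign at -1.08 and 0.20) and RPS27L (-0.10) lowest.

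Regulators of mitochondrial gene expression differed little, with a median of 0.08 over 13 genes, close to that of all genes. NRF1 differed by 0.03, GABPA by 0.08, GABPB1 by 0.17, ESRRA by 0.07, PPRC1 by 0.17, PPARGC1A by 0.01 and PPARGC1B by 0.17. YY1 was the highest at 0.29. The mitochondrial transcription factors differed by 0.05 (TFB1M), 0.15 (TFB2M) and 0.18 (TFAM, whose probes were at -0.01 and 0.38), and the RNA polymerase POLRMT by 0.00. MYC was the only regulator lower in substate 2, at 3.16 against 3.56 (-0.40), although POLRMT, TFB1M and ESRRA were also below 0 after loess centring.

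**Figure D5:**
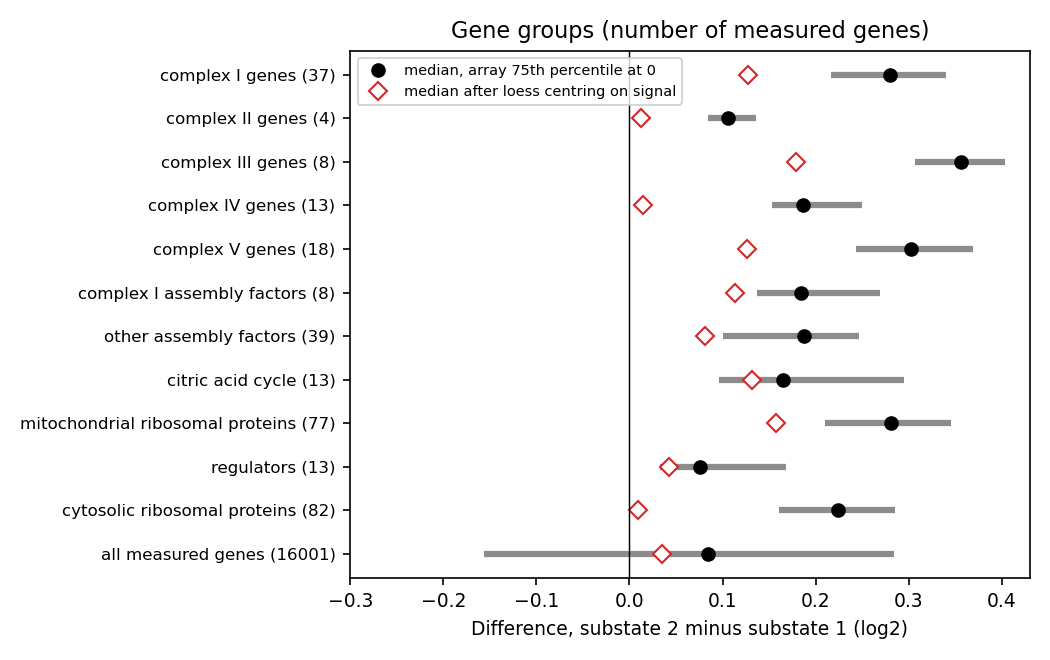
Median difference (substate 2 minus substate 1, log2) of the genes of each complex, of other gene lists and of all 16001 measured genes, with the quartile range over genes as a bar and the median after loess centring on signal as a diamond. After centring, complexes I, III and V, the citric acid cycle and the mitochondrial ribosomal proteins had medians between 0.13 and 0.18. All genes were at 0.03, the assembly factors of complex I at 0.11, other assembly factors at 0.08 and regulators at 0.04. Complexes II and IV and the cytosolic ribosomal proteins were at 0.01.

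The noncoding genes left out by the rule were few. NDUFA6-DT, a transcript that starts opposite NDUFA6, had 4 measured probes with differences of 0.22, 0.47, 0.63 and 0.85, larger than the 0.28 of NDUFA6 in 3 of the 4. The antisense gene NDUFB2-AS1 differed by 0.09 and -0.03 on its probes and NDUFV2-AS1 by -0.04 on its measured probe. The other probe of NDUFV2-AS1 and that of the pseudogene UQCRBP1 were well above background on neither array.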

How the data were processed

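Total RNA of 1 substate 1 and 1 substate 2 culture was labelled with Cy3 and hybridised to Agilent arrays. The authors deposited scanner files in which, per the file headers, Feature Extraction 11.5.1.1 (protocol GE1_1105_Oct12, annotation on hg19) gave each of 62976 spots a background-subtracted, detrended intensity. The authors also deposited a matrix of log2 values made in GeneSpring GX, with signals under 1 set to 1 and each array shifted by its 75th percentile. These matched the values computed here up to 1 constant per array for 100% of 58201 probes within 0.01.

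Of the spots, 60901 were not controls, of which 57.4% (substate 1) and 54.7% (substate 2) were well above background, 71 and 101 were outliers and left out, and 0 were saturated or under 1. Log2 of the processed intensity was averaged over spots, and the 75th percentile of the array (intensities of 313.7 and 275.4) was subtracted. A Z-score was the difference minus its mean over all probes (0.07), divided by its SD (0.63). RefSeq accessions named 31104 probes through a gene table on GRCh38.p14. The 9747 probes with only an Ensembl transcript were not named, and subunits encoded in mitochondrial DNA were not analysed here.

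With 1 array per substate there was no test, and 2 arrays limit the precision. Named were the 3 highest and 3 lowest genes of each complex, all of complex II, genes with a bound, paralogue pairs, genes printed several times, and the 2 highest and lowest of each other list, with the electron carriers and regulators. UQCRC1, UQCRFS1, the core of complex I, the F1 subunits and others of COX5, COX6 and COX7 were added after their values were seen. Some single genes that these rules would name are not reported here. The members and lists were chosen with earlier results of these data known. A bound used, for the dim array, the higher of the probe's signal and the lowest signal among probes well above background.

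Alternatives were median, quantile and loess (span 0.3) centring, normexp (offset 50) on median foreground and background, outliers kept, the deposited log2 values, other Z-scores and folds, dim probes kept and 1 probe per gene. The script was tested on simulated data. Python 3.11.15, pandas 2.3.3, R 4.3.3 and limma 3.58.1 were used.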

Additional observations from a re-analysis of the deposited data

How the results depend on the processing

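The upward shift of the subunits kept its sign in each setting tried, but its size depended on the centring. Quantile normalisation gave medians of 0.11 for all subunits and of 0.12, 0.021, 0.17, 0.050 and 0.15 for complexes I to V, and loess centring gave 0.11 for all and 0.11, 0.0080, 0.15, 0.032 and 0.14. A loess on measured probes only, chosen after seeing the data, gave 0.11 for all and 0.11, 0.0064, 0.15, 0.030 and 0.13. The excess of the subunits over all measured probes was 0.20 with the 75th percentile or the median at 0, 0.14 with normexp, 0.08 with quantile normalisation and 0.09 with loess, 0.10 on measured probes. Of the other settings (median centring, normexp, outlier spots kept, deposited log2 values, dim probes kept, probes above the median signal, 1 value per gene), none moved a median of a complex by more than 0.07. That is the SD of a difference between single spots, not the error of a median. Normexp lowered the median of each complex, to 0.22, 0.068, 0.27, 0.15 and 0.26 for complexes I to V.

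By gene, 66 of 80 were higher with loess, 68 with quantile normalisation, 77 with median centring, 76 with normexp and 75 with the brightest probe of a gene. Quantile normalisation turned the sign of ATP5F1E (-0.14), COX6C (-0.019), COX7A2 (-0.066), NDUFB10 (-0.021), NDUFB4 (-0.0068), NDUFS4 (-0.0052), NDUFV1 (-0.025) and SDHA (-0.030). Loess centring turned ATP5F1E (-0.14), COX5B (-0.0049), COX6C (-0.016), COX7A2 (-0.054), COX7C (-0.067), NDUFB10 (-0.040), NDUFB4 (-0.042), NDUFS4 (-0.0093), NDUFV1 (-0.041) and SDHA (-0.046). Median centring turned NDUFA9 (0.024) and the brightest probe alone SDHA (-0.074). The cause was not tested.

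With normexp 1 subunit probe passed the Z-score limits (NDUFA3), and with an SD from the median absolute deviation 2 did (COX6A2 and COX8C). That SD was 0.36 in place of 0.63, which narrowed the limits for all probes. The share of all probes past these other limits is not given here. At 1.5-fold in place of 2-fold there were 3, against 13.7% of all probes that at least 1 array measured. The other settings tried gave 0 for both counts. No paired analysis was possible because the study ran a single array for either substate. Dim probes such as COX8C, COX6A2 and COX7B2 limit what can be said of the tissue forms.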
